A study of Mus musculus with 8 samples.

Results

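The uptake of fatty acids by muscle, their binding and activation in the fibre, and their release from stored triglyceride were examined through 10 genes: Cd36, Fabp3, Slc27a1, Lpl, Pnpla2, Lipe, Mgll, Plin2, Acsl1 and Angptl4. They were chosen by gene symbol from the 12896 genes listed for the quadriceps muscle, and 10 of 10 were listed and tested. The choice was made with earlier results of these data known, so shares of all genes set beside it are a description only. RNA-Seq had been performed on the quadriceps of 4 Folfiri-treated and 4 Vehicle-treated male CD2F1 mice with no tumor. The study describes the mice given treatment as 8 weeks old, and tissues were collected later, at sacrifice. Folfiri is a chemotherapy of 5-FU (5-fluorouracil, an antimetabolite), Leucovorin and CPT-11 (also called irinotecan, which blocks topoisomerase), injected intraperitoneally over up to 5 weeks in doses of 30, 90 and 24 mg/kg, and the control mice received the vehicle alone. The study asked which mechanisms accompany muscle wasting under this regimen.

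Muscle takes fatty acids from circulating lipoproteins and from albumin, and it also keeps a small store of triglyceride in lipid droplets. Lipoprotein lipase on the capillary wall frees fatty acids from lipoprotein triglyceride, membrane proteins and cytosolic binding proteins bring them into the fibre, and acyl-CoA synthetases trap them as acyl-CoA for oxidation or storage. Inside the cell, adipose triglyceride lipase, hormone-sensitive lipase and monoglyceride lipase act in sequence to empty the droplet. The same enzymes are abundant in adipocytes, and many of these genes are known targets of the PPAR nuclear receptors.

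None of the 10 genes differed between Folfiri and Vehicle quadriceps at an adjusted p under 0.05 (edgeR quasi-likelihood test, Benjamini-Hochberg over 12883 genes), and 0 were called by edgeR's exact and likelihood ratio tests, DESeq2 or limma voom either. Only 1 of the 12883 genes tested was called, or 0.00776%, and this was Exoc3l4, named here after its values were seen (higher under Folfiri, adjusted p = 0.0396). The point estimates nevertheless all lay on one side. The log2 fold change (Folfiri over Vehicle) was negative for all 10, between -1.49 and -0.43 with a median of -0.81, while the median of all genes tested was 0.01 and 48.6% of them were negative. At an unadjusted p under 0.05, 5 of the 10 were lower under Folfiri (Cd36, Lpl, Pnpla2, Acsl1 and Angptl4) and 0 were higher, against 4.02% lower and 5.48% higher of all genes tested. In 0 of the 10 did the groups separate, so that at least 1 Folfiri library always lay above a Vehicle library. Over all genes, the 4 Folfiri libraries lay below the 4 Vehicle libraries in 2.66% and above them in 2.87%. A single Vehicle library held the highest level of all 10 genes, and its effect on each estimate is given with the gene.

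The libraries held 8505985 to 21056818 counts. Levels are given as CPM, counts relative to the TMM-scaled library size, always for replicates 1 to 4 of a group, and fold changes are on the log2 scale with their SE. The skeletal muscle markers together took 144125 to 232600 CPM in Folfiri and 160563 to 246477 CPM in Vehicle libraries. Of the marker lists of other cell types, the macrophage list summed to 95.8 to 169.9 CPM in Folfiri and 58.8 to 102 CPM in Vehicle muscle and the hepatocyte list to 8.70 to 256 CPM in Folfiri and 0.785 to 10.5 CPM in Vehicle muscle (exact permutation p = 0.0571 for each, two-sided, 0.229 after adjustment over 8 marker lists, where the smallest possible p is 0.0286). Folfiri 1, the lowest library for 8 of the 10 genes, held the 256 CPM of the hepatocyte list, against 8.70 to 79.8 CPM in the other Folfiri libraries. It also had the highest TMM factor of the 8 libraries, 1.168. The part of these marker lists and of the scaling of Folfiri 1 in the results was not tested.

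**Figure D1:**
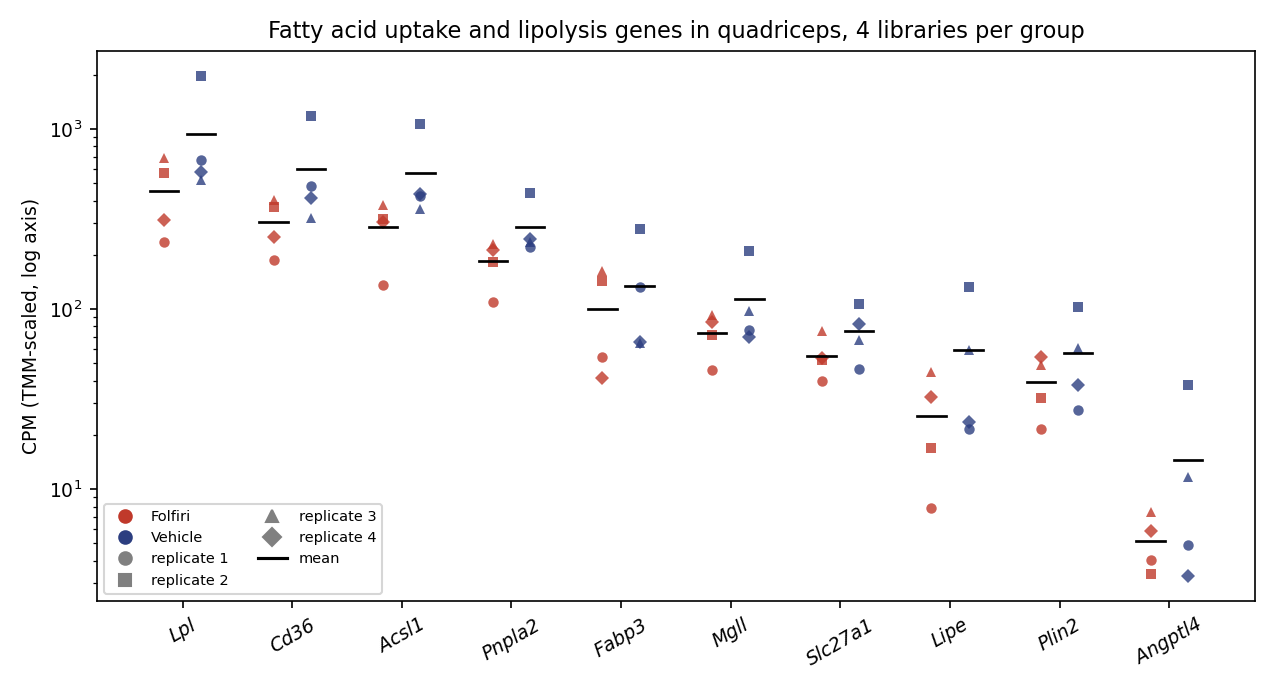
CPM of each of the 10 genes (log axis) in the 4 Folfiri libraries (red, left of each pair) and the 4 Vehicle libraries (blue, right), with the symbol giving the replicate number and the bar the group mean. The blue square, Vehicle 2, is the highest point for every gene, and the groups overlap in all 10.

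Cd36 (chr5:17287508-17394777, minus strand, mm9) encodes the membrane protein that facilitates the uptake of long-chain fatty acids. It measured 187, 371, 406 and 251 CPM in Folfiri muscle, against 481, 1173, 320.3 and 411 CPM in Vehicle muscle. Vehicle 2 stood well above the other Vehicle libraries, at 2.90 times their mean, and Folfiri 3 exceeded Vehicle 3, so the groups overlapped. The mean was 304 ± 102 CPM in Folfiri and 596 ± 390.1 CPM in Vehicle muscle (SD, n = 4 each), a log2 fold change of -0.97 ± 0.38 (unadjusted p = 0.0256, edgeR adjusted p = 0.471). Without Vehicle 2 the estimate was -0.41, and without both Vehicle 2 and Folfiri 1 it was -0.24.

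Slc27a1 (chr8:74092826-74110607, plus strand) encodes the fatty acid transport protein FATP1, which joins uptake to acyl-CoA synthesis. Its levels were 39.7, 52.2, 75.6 and 53.3 CPM in Folfiri muscle, against 46.2, 107, 67.4 and 82.9 CPM in Vehicle muscle. It varied least of the 10 genes among the Vehicle libraries, with a coefficient of variation of 33.7%. The lowest Vehicle library, Vehicle 1, lay below 3 of the 4 Folfiri libraries. The log2 fold change was -0.46 ± 0.26 (edgeR adjusted p = 0.585), and -0.25 without Vehicle 2.

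Fabp3 (chr4:129986022-129992707, plus strand) encodes the heart and muscle fatty acid-binding protein, which carries fatty acids through the cytosol. Folfiri muscle held 54.1, 143, 164 and 41.2 CPM, against 132, 278, 65.0 and 65.6 CPM in Vehicle muscle. Folfiri 2 and 3 were thus above 3 of the 4 Vehicle libraries, and Folfiri 1 and 4 were below all of them. The difference was the smallest of the 10, with a log2 fold change of -0.43 ± 0.51 and a 95% interval of -1.54 to 0.68 (edgeR adjusted p = 0.807). It was the only gene of the 10 whose sign turned when Vehicle 2 was left out, to 0.20. With Folfiri 1 also left out it was 0.41. The annotation also lists a pseudogene of it, Fabp3-ps1, and how reads alike in both were assigned is not stated.

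Lpl (chr8:71404454-71430831, plus strand), lipoprotein lipase, had a mean level of 112 CPM per kb in Folfiri and 232 CPM per kb in Vehicle muscle, the highest of the 10 genes per length in Vehicle muscle and second to Fabp3 (157 CPM per kb) in Folfiri muscle. The libraries measured 236, 573, 689.9 and 312 CPM under Folfiri, against 1975 CPM in Vehicle 2 and 523 to 673 CPM in the other 3 Vehicle libraries. Folfiri 3 was above all Vehicle libraries but Vehicle 2, whereas Folfiri 1 and 4 were below all 4. The means were 453 ± 214 CPM in Folfiri and 937 ± 695 CPM in Vehicle muscle (SD, n = 4 each), with a log2 fold change of -1.05 ± 0.45 (unadjusted p = 0.0374, edgeR adjusted p = 0.503). Without Vehicle 2 it was -0.38, and without Folfiri 1 as well -0.17.

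Angptl4 (chr17:33911845-33918520, minus strand) encodes a secreted inhibitor of lipoprotein lipase. It was the least abundant of the 10, with 41 to 469 reads per library, and it had the most negative estimate. Its levels were 4.02, 3.38, 7.46 and 5.82 CPM in Folfiri muscle, against 4.92, 37.8, 11.6 and 3.30 CPM in Vehicle muscle. The Folfiri libraries all lay within the span of the Vehicle libraries, the lowest of which, Vehicle 4, was the lowest of all 8. The log2 fold change of -1.49 ± 0.62 (unadjusted p = 0.033, edgeR adjusted p = 0.498) rested on Vehicle 2, at 5.72 times the mean of the other Vehicle libraries, and was -0.33 without it.

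Acsl1 (chr8:47556391-47621405, plus strand), the long-chain acyl-CoA synthetase of muscle, fat and liver, had the smallest unadjusted p of the 10. It measured 135, 317, 380.4 and 306 CPM in Folfiri muscle, against 422, 1070.0, 361 and 438 CPM in Vehicle muscle. A single pair broke the separation of the groups, since Folfiri 3 exceeded Vehicle 3. The means were 285 ± 105 CPM in Folfiri and 573 ± 333 CPM in Vehicle muscle (SD, n = 4 each), and the log2 fold change was -1.01 ± 0.38 (unadjusted p = 0.0196, edgeR adjusted p = 0.46). Of the 10 genes it kept the most negative value without Vehicle 2, at -0.52, and without Folfiri 1 as well it was -0.28.

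The lipases of the droplet act in the order Pnpla2, Lipe, Mgll. Pnpla2 (chr7:148641087-148646642, plus strand) encodes adipose triglyceride lipase, which removes the first fatty acid from triglyceride, and was found at 109, 183, 229 and 213 CPM in Folfiri muscle, against 221, 444, 235 and 246 CPM in Vehicle muscle. The other 3 Vehicle libraries lay close together, and among the Folfiri libraries only Folfiri 3 reached into their range. The log2 fold change was -0.64 ± 0.27 (unadjusted p = 0.0372, edgeR adjusted p = 0.503), and -0.35 without Vehicle 2.

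Lipe (chr7:26164546-26181006, minus strand) encodes hormone-sensitive lipase, which acts mainly on diacylglycerol. The levels ran at 7.83, 16.8, 44.8 and 32.5 CPM under Folfiri, against 21.5, 133, 59.1 and 23.7 CPM under Vehicle. Both groups spread widely, with coefficients of variation of 64.4% in Folfiri and 87.8% in Vehicle muscle. Its log2 fold change of -1.22 ± 0.59 missed the unadjusted threshold too (unadjusted p = 0.061, edgeR adjusted p = 0.545), and without Vehicle 2 it was -0.44. On the other strand of its locus the annotation places 4732471J01Rik, whose reads would be told apart only if strand was used in counting, which is not stated.

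Mgll (chr6:88674406-88778354, plus strand) encodes monoglyceride lipase, the last enzyme of the sequence. Folfiri muscle gave 45.6, 72.0, 92.6 and 84.9 CPM, against 76.2, 210.0, 97.4 and 69.8 CPM in Vehicle muscle. Apart from Vehicle 2 and Folfiri 1, the remaining libraries of both groups overlapped throughout. The log2 fold change of -0.62 ± 0.34 (edgeR adjusted p = 0.574) was -0.14 without Vehicle 2 and turned to 0.04 without Folfiri 1 as well.

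Plin2 (chr4:86302469-86315963, minus strand) encodes perilipin 2, a coat protein of lipid droplets in most cells, whose protein level follows the amount of stored lipid. It measured 21.7, 31.9, 49.0 and 54.4 CPM in Folfiri muscle, against 27.6, 102, 60.8 and 37.8 CPM in Vehicle muscle. Folfiri 3 and 4 exceeded Vehicle 1 and 4. Its log2 fold change was -0.54 ± 0.38 (edgeR adjusted p = 0.667), -0.10 without Vehicle 2, and 0.11 without Folfiri 1 as well.

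**Figure D2:**
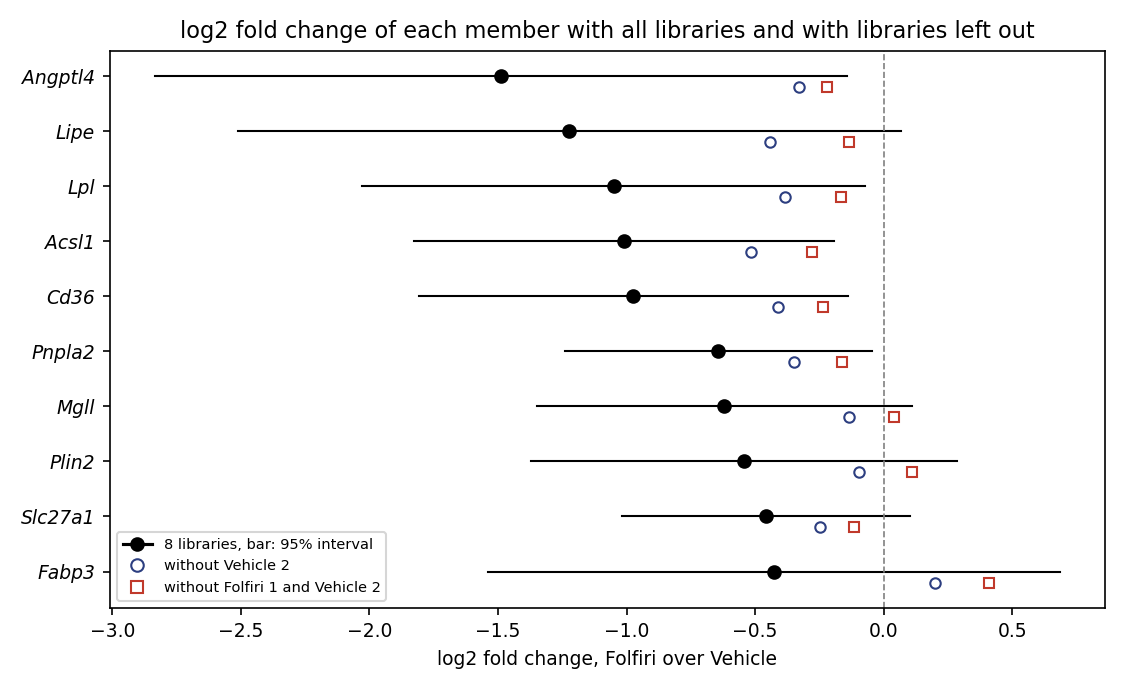
log2 fold change of Folfiri over Vehicle for the 10 genes (rows), fitted with all 8 libraries (filled point, bar for the 95% interval), without Vehicle 2 (open circle) and without Folfiri 1 and Vehicle 2 (open square). Leaving out Vehicle 2 moves every estimate toward or past 0, from a median of -0.81 to -0.34, and leaving out both libraries gives a median of -0.15.

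Across the libraries the 10 genes varied together. Their summed level was 840.2, 1763, 2139 and 1354 CPM in Folfiri muscle, against 2107, 5529.9, 1800.5 and 1956 CPM in Vehicle muscle. Vehicle 2 was the highest of the 8 libraries for 10 of 10 genes, where it was the highest for 16.0% of all genes tested, and Folfiri 1 was the lowest for 8 of 10, against 22.5% of all genes. The exceptions among the lowest were Fabp3, lowest in Folfiri 4, and Angptl4, lowest in Vehicle 4. Over the 45 pairs of members, the correlation of log2 CPM across the 8 libraries ran from 0.37 to 0.99 with a median of 0.84, a description of libraries that share their depth and scaling. No such range was computed for pairs of other genes, or without Vehicle 2 and Folfiri 1. When Vehicle 2 was left out, 9 of the 10 estimates stayed negative and 0 passed an unadjusted p of 0.05. When Folfiri 1 was left out as well, 7 were negative and 0 passed.

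Below this common pattern, the 10 genes ordered the libraries in different ways. For Lipe, Angptl4, Plin2 and Mgll the 4 highest libraries were Vehicle 2, Vehicle 3, Folfiri 3 and Folfiri 4, and those were also the 4 highest for the summed adipocyte markers. That sum, over 13 of 13 tested markers such as Adipoq (adiponectin) and Plin1, none at 0 in any library, was 236, 209.6, 653 and 468 CPM in Folfiri muscle, against 224, 2106, 863 and 271 CPM in Vehicle muscle (exact permutation p = 0.343, two-sided, adjusted p = 0.522). Of the 13 markers 11 had a negative log2 fold change and 11 were highest in Vehicle 2. The 2 positive ones, Retn (0.12 ± 0.88) and Thrsp (0.23 ± 0.68), were picked after their values were seen. Fabp4, which capillary endothelium also expresses, made up much of the sum, at 194 of the 236 CPM in Folfiri 1. It was 252 of the 653 CPM in Folfiri 3 and 1099 of the 2106 CPM in Vehicle 2. Of 6 brown adipocyte markers 4 were tested, of which Elovl3 was at 0 in Vehicle 1 and 4. Their sum was 1.95 to 4.82 CPM in Folfiri muscle, against 368 CPM in Vehicle 2 and 1.57 to 30.6 CPM in the other Vehicle libraries. Ucp1, at 251 CPM, and Cidea, at 94.8 CPM, made up most of the sum in Vehicle 2. Elovl3 made up 3.37 of the 4.45 CPM in Folfiri 1. Ucp1 and Elovl3 were named after their values were seen. In bulk muscle, fewer adipocytes and less RNA per adipocyte cannot be told apart, and the part of adipocyte RNA in the 10 genes was not tested.

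Fabp3 ordered the libraries otherwise. Its 3 highest were Vehicle 2, Folfiri 3 and Folfiri 2, the same as for Mb and Myh2, genes of the skeletal muscle list picked after the values of Fabp3 had been seen because their order matched. Of the 13 genes of that list 3 were highest in Vehicle 2. The 3 genes Actn3, Pvalb and Mylpf, named after their values were seen, were lowest there. Mb, which encodes the oxygen-binding myoglobin, measured 869.9, 2131, 2339.6 and 724 CPM in Folfiri muscle, against 1815, 3909, 894 and 1982 CPM in Vehicle muscle. Myh2, the myosin of fast oxidative fibers, measured 68.6, 1079, 1595 and 429 CPM in Folfiri muscle, against 667, 4091, 663 and 1068 CPM in Vehicle muscle. The slow fiber genes, 7 of 7 tested and none at 0, summed to 41.6, 674, 319.8 and 276 CPM in Folfiri muscle, against 137, 1623, 432 and 216 CPM in Vehicle muscle (exact permutation p = 0.657, two-sided, adjusted p = 0.657). Folfiri 1 was thus low, and Vehicle 2 high, in slow fiber genes as in the members, and the endothelial markers were lowest in Folfiri 1 too, at 226 CPM against 352 to 421 CPM in the other Folfiri and 343 to 536 CPM in the Vehicle libraries. The part of fiber or capillary content in the result was not tested.

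**Figure D3:**
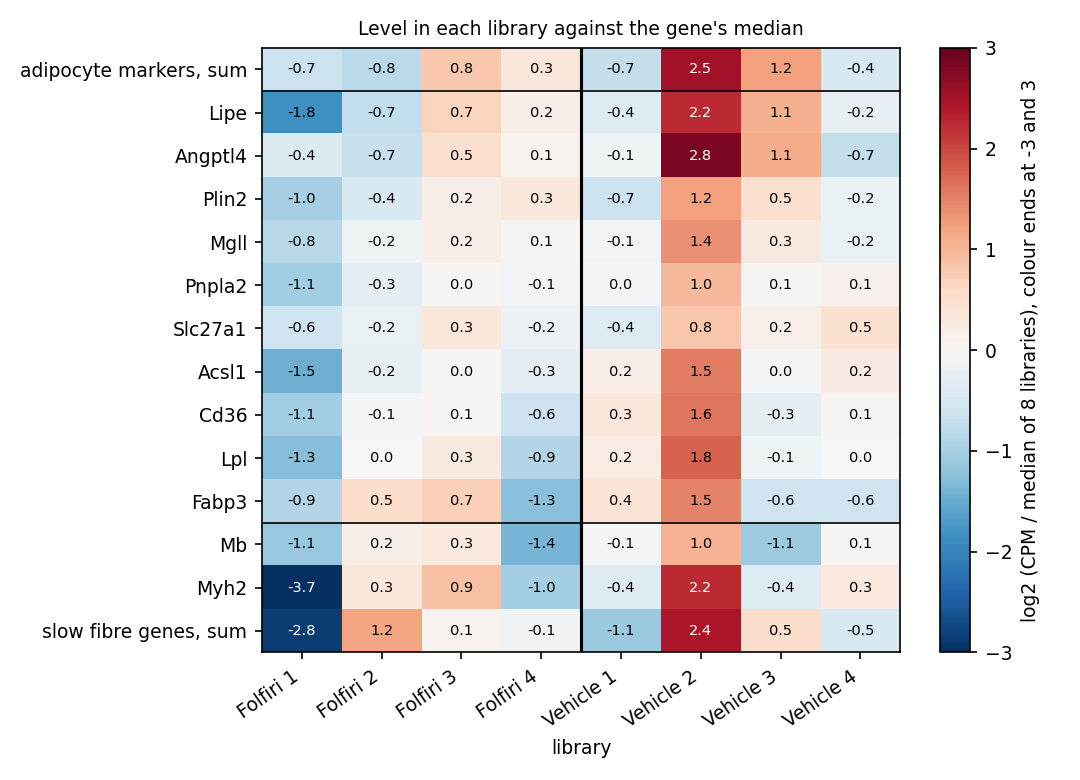
log2 ratio of the CPM in each library (columns, Folfiri 1 to 4 and then Vehicle 1 to 4) to the median of the 8 libraries, for the 10 genes (middle rows), the summed adipocyte markers (top row) and Mb, Myh2 and the summed slow fiber genes (bottom rows). Vehicle 2 is red in every row, Folfiri 1 is blue in every row, and Vehicle 3 is red for Lipe, Angptl4 and the adipocyte markers but blue for Fabp3 and Mb.

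Other genes were compared with the average profile of the 10, leaving out the pathway lists and all cell type marker lists. Among 9291 such genes with a mean of at least 5 CPM, the most alike in log2 CPM over 8 libraries were Ywhab (r = 0.98), Nudt7 (r = 0.98), Cgnl1 (r = 0.97), Por (r = 0.97) and Ephx2 (r = 0.97). Ywhab encodes a 14-3-3 adaptor protein, Nudt7 a peroxisomal coenzyme A diphosphatase, Cgnl1 a junction protein, Por the cytochrome P450 reductase and Ephx2 soluble epoxide hydrolase. None was called, with edgeR adjusted p of 0.498 to 0.67. Cgnl1 shows the shared shape at its sharpest, at 4.16, 8.55, 9.12 and 8.70 CPM in Folfiri muscle, against 7.52, 35.5, 11.4 and 9.49 CPM in Vehicle muscle.

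The wider pathway was described through 7 lists of other genes, drawn up with earlier results of these data known. The shares of all genes set beside their counts are thus a description only. The lists held 74 genes, of which 67 were tested. Of these, 0 were called by the quasi-likelihood test. The exact test called 4 of the 67, beside 0.668% of all genes tested. The likelihood ratio test called 5 of the 67, beside 0.784% of all genes, and DESeq2 3 of the 67, beside 0.598%. At an unadjusted p under 0.05, 22 of the 67 were lower and 4 higher under Folfiri, beside 4.02% and 5.48% of all genes. A negative log2 fold change was found for 54, beside 48.6% of all genes, with a median of -0.42. Vehicle 2 was the highest library for 41 of the 67, beside 16.0% of all genes, and Folfiri 1 the lowest for 33, beside 22.5%.

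**Figure D4:**
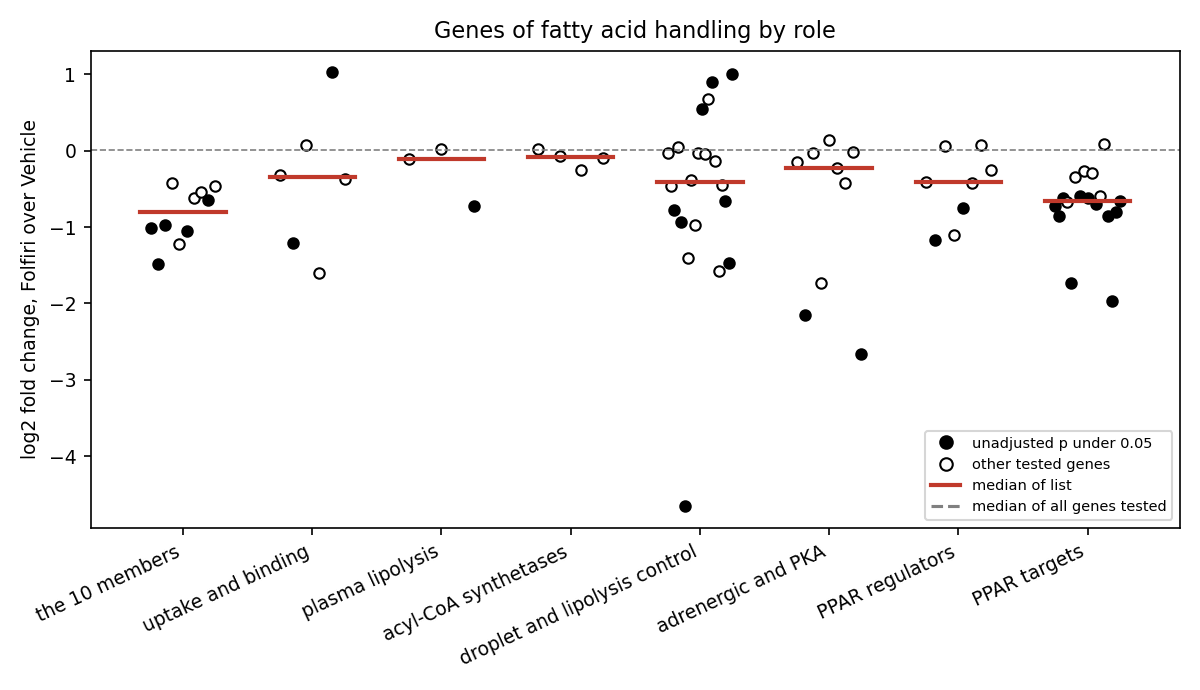
log2 fold change of Folfiri over Vehicle (vertical axis) for the 10 genes and for the tested genes of the 7 lists (columns), filled where the unadjusted p was under 0.05, with the median of each list (red) and of all genes tested (dashed). The list medians run from -0.81 for the 10 genes and -0.66 for the PPAR targets to -0.09 for the acyl-CoA synthetases.

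Among the other carriers of fatty acids, 4 of 6 tested genes were negative. Fabp4, the fatty acid-binding protein of adipocytes and capillary endothelium, was at 194, 155, 252 and 258 CPM in Folfiri muscle, against 191, 1099, 473 and 227 CPM in Vehicle muscle (log2 fold change -1.21 ± 0.46, edgeR adjusted p = 0.462, and -0.47 without Vehicle 2). Slc27a3, a relative of Slc27a1, pointed the other way, at 4.09, 5.60, 2.86 and 3.01 CPM in Folfiri muscle, against 1.37, 1.37, 3.14 and 2.01 CPM in Vehicle muscle (1.02 ± 0.35, adjusted p = 0.434). In neither did the groups separate.

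On the capillary side, Gpihbp1, the endothelial anchor of lipoprotein lipase, was at 15.3 to 22.5 CPM in Folfiri and 13.6 to 26.4 CPM in Vehicle muscle (-0.12 ± 0.23, edgeR adjusted p = 0.892). Vldlr, the receptor that takes up triglyceride-rich lipoproteins beside Lpl, measured 459, 424, 345 and 329 CPM in Folfiri muscle, against 697, 558, 674 and 655 CPM in Vehicle muscle, so that the groups did not overlap, Folfiri being the lower, and Vehicle 2 was the lowest of the Vehicle libraries. Its log2 fold change was -0.73 ± 0.18 (edgeR quasi-likelihood adjusted p = 0.272), and it was called by the exact test (adjusted p = 0.0391), the likelihood ratio test (0.037) and DESeq2 (0.00374). Of the other acyl-CoA synthetases, 0 of 4 passed an unadjusted p of 0.05, with Acsl5 at -0.26 ± 0.28 and Acsl6 at -0.10 ± 0.19 (adjusted p = 0.785 and 0.888).

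Of 20 tested genes of the lipid droplet and the control of lipolysis, 15 had negative estimates, and an unadjusted p under 0.05 was reached by 5 on the lower side (Cidea, Plin4, Plin5, Ces1d and Aqp7) and 3 on the higher (Hilpda, Fitm1 and Pnpla3), all but Cidea and Hilpda named after their values were seen. Hilpda, a droplet protein that inhibits adipose triglyceride lipase, was at 7.04, 4.43, 5.35 and 3.95 CPM in Folfiri muscle, above the 2.39, 2.66, 3.40 and 2.73 CPM of Vehicle muscle in every library (0.90 ± 0.26, edgeR adjusted p = 0.357). G0s2, the other inhibitor of that lipase and a gene picked after its values were seen, had 13.2, 24.3, 21.3 and 18.9 CPM in Folfiri and 4.78, 22.1, 12.2 and 9.65 CPM in Vehicle muscle (0.68 ± 0.37, adjusted p = 0.572). The lipase's coactivator Abhd5, also picked afterwards, had a log2 fold change of -0.03 ± 0.17 (adjusted p = 0.958). Cidea, a droplet protein of brown adipocytes, was at 0.431 to 2.04 CPM in Folfiri muscle, against 94.8 CPM in Vehicle 2 and 0.322 to 8.76 CPM in the other Vehicle libraries (-4.65 ± 1.38, quasi-likelihood adjusted p = 0.381, and -1.52 without Vehicle 2). It was called by the likelihood ratio test (adjusted p = 0.0474) but not by the exact test (0.067) or DESeq2 (0.137). Plin5, the perilipin of oxidative muscle and the only gene of this list whose Folfiri libraries were all below its Vehicle libraries, was chosen after its values were seen and measured 2.37, 12.8, 13.9 and 9.50 CPM in Folfiri muscle, against 17.9, 47.6, 16.2 and 25.6 CPM in Vehicle muscle (-1.47 ± 0.46, adjusted p = 0.405).

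The adrenergic signal that switches on Lipe was represented by 9 tested genes, of which 8 were negative. Prkar2b, a regulatory subunit of protein kinase A that is abundant in fat, measured 1.79, 2.47, 11.5 and 5.02 CPM in Folfiri muscle, against 1.02, 105, 21.7 and 1.93 CPM in Vehicle muscle (-2.67 ± 1.10, edgeR adjusted p = 0.498). Adrb3, the adrenergic receptor of adipocytes, was at 0.287 to 2.34 CPM in Folfiri and 0.478 to 16.0 CPM in Vehicle muscle (-2.15 ± 0.97, adjusted p = 0.514). Both were highest in Vehicle 2, without which the estimates were -0.61 and -0.76.

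Of 8 tested PPAR regulators, 6 had negative estimates, and 2 of them, Ppara and Ppargc1a, reached an unadjusted p under 0.05. The 2 positive ones were Ppard (0.06 ± 0.15, edgeR adjusted p = 0.915) and Rxra (0.08 ± 0.18, edgeR adjusted p = 0.91). Both were named after their values were seen. Ppara, the receptor that drives fatty acid oxidation genes, was at 11.2, 21.2, 28.6 and 16.5 CPM in Folfiri muscle, against 27.6, 105, 20.3 and 21.6 CPM in Vehicle muscle (-1.17 ± 0.49, edgeR adjusted p = 0.498, and -0.26 without Vehicle 2). Its coactivator Ppargc1a was at 46.7, 58.1, 53.7 and 42.8 CPM in Folfiri muscle, against 90.9, 152, 44.9 and 49.7 CPM in Vehicle muscle (-0.75 ± 0.33, adjusted p = 0.51, and -0.30 without Vehicle 2). Among the other PPAR targets, 16 of 17 tested genes had negative estimates, with a median of -0.66, and those past an unadjusted p of 0.05 were 11 lower and 0 higher. Vehicle 2 was the highest library for 14 of the 17 and Folfiri 1 the lowest for 14, the 2 libraries that also stood at the ends of the range of most members.

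All Folfiri libraries lay below all Vehicle libraries in 2.66% of all genes tested. The same held for 5 of these 17 targets, from a list drawn up with earlier results of these data known. They were Mlycd, Acot2, Pdk4, Slc25a20 and Decr1, the last 3 named after their values were seen, and all but Mlycd were highest in Vehicle 2 and lowest in Folfiri 1. Mlycd, malonyl-CoA decarboxylase, which relieves the inhibition of mitochondrial fatty acid import, was at 60.2, 61.1, 60.2 and 74.7 CPM in Folfiri muscle, against 96.1, 127, 107 and 132 CPM in Vehicle muscle. Its log2 fold change was -0.85 ± 0.16 (edgeR quasi-likelihood adjusted p = 0.187), between -0.93 and -0.78 when any 1 library was left out, and it was called by the exact test (adjusted p = 0.00418), the likelihood ratio test (0.00388) and DESeq2 (0.000496). Acot2, a mitochondrial acyl-CoA thioesterase whose reads could be split with its near-identical neighbor Acot1, was at 2.08, 6.64, 6.03 and 3.82 CPM in Folfiri muscle, against 15.3, 26.5, 8.11 and 11.9 CPM in Vehicle muscle (-1.73 ± 0.39, quasi-likelihood adjusted p = 0.268). It was called by the exact test (adjusted p = 0.0089), the likelihood ratio test (0.00752) and DESeq2 (0.00404), and its log2 fold change was -1.10 without Folfiri 1 and Vehicle 2. Pdk4, a kinase that inhibits the pyruvate dehydrogenase complex, was at 125, 289.7, 576 and 432 CPM in Folfiri muscle, against 1408, 2561, 706 and 899 CPM in Vehicle muscle (-1.97 ± 0.47, adjusted p = 0.272).

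Because many of the genes are known PPAR targets, their promoters were searched on both strands for the receptor's recognition hexamer AGGTCA and for the direct repeat of it spaced by 1 base. RefSeq promoter windows on GRCm38.p6, 250 bases before to 50 after each start, were matched for 8 of the 10 genes (13 windows), all but Lpl and Angptl4. The hexamer was found in 2 of the 13 windows, those of Cd36 and Plin2, each time on the opposite strand of the gene and beginning 228 and 218 bases before the start, against 16.3% of 32851 promoters of the same length. The direct repeat, searched as an exact match, was found in 0 of the 13 windows and in 0.0396% of all promoters. At so low a share, 0 of 13 windows does not set these genes apart. Imperfect repeats and sites outside the windows were not searched. The windows of Cd36 and Plin2 are printed here 5′ to 3′ on the strand of the gene, with the hexamer, read there as its reverse complement, in capitals. They lie at chr5:17835847-17836146 (Cd36, minus strand) and chr4:86670010-86670309 (Plin2, minus strand). Matched to mm9, the Cd36 window lies at chr5:17341665-17341964, inside the span listed for the gene, and the Plin2 window at chr4:86315914-86316213. The window of Fabp3 (chr4:130308488-130308787, plus strand), the gene with the smallest difference, is printed beside them as one without the hexamer.
Cd36: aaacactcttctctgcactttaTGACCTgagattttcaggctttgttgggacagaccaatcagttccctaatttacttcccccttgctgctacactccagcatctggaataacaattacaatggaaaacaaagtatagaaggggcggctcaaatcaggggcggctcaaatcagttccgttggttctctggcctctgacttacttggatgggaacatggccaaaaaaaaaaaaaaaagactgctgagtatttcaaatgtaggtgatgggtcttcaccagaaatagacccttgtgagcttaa
Plin2: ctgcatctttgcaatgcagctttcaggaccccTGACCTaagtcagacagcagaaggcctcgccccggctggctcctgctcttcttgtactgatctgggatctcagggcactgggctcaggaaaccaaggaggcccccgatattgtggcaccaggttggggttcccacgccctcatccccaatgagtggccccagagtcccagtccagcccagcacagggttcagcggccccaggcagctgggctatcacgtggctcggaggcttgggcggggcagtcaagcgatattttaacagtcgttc
Fabp3: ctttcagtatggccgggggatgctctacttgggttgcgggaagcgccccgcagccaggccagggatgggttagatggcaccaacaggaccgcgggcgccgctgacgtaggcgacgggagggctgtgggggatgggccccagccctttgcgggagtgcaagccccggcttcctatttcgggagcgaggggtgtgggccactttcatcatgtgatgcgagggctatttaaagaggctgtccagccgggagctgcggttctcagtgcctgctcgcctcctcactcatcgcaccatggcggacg
The members with the hexamer, Cd36 and Plin2, had log2 fold changes of -0.97 and -0.54, and the other 6 genes searched had -1.22 to -0.43. A match is a description of these letters only, and says nothing of binding in these muscles.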

How the data were processed

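Quadriceps RNA of 4 Folfiri-treated and 4 Vehicle-treated mice was compared, grouped by the sample titles. The labels number the Folfiri libraries 26 to 29 and the Vehicle libraries 18 to 21 and name no batch. According to the study's methods, poly(A) RNA was sequenced with strand (SOLiD, single 75-base reads), reads of low quality or from rRNA and tRNA were removed, the rest were mapped with bfast to mm9 and to a splice-junction library, and reads were counted for RefSeq genes with bamutils. The submitters' processing notes name mm9 and edgeR. The deposited counts are the authors' raw reads per gene, with no scaling. Whether strand was used in counting is not given in the sources used here. Gene length, in bases as the authors deposited it, served only for levels per kb. The table also holds 8 normalized columns and the authors' own fold changes, p-values and FDR values, and none of these was used. No listed gene of the 12896 sums to fewer than 18 reads, a filter the sources do not explain. Of the names, 21 had been turned into dates, and 0 genes of the mitochondrial chromosome are listed.

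With R 4.3.3 and edgeR 4.0.16, the raw counts were scaled by TMM (factors 0.898 to 1.168) and the 12883 genes with at least 40 reads were fitted by the quasi-likelihood method, and a gene was called where its p, adjusted by Benjamini-Hochberg, was under 0.05. The coefficient of biological variation common to all genes was 0.261, with 6 residual degrees of freedom, and log2 CPM of replicates correlated at 0.948 to 0.978. Sums of marker genes were compared by an exact two-sided permutation test over samples (70 arrangements). Alternatives were the exact, likelihood ratio and robust quasi-likelihood tests, DESeq2 1.42.0, limma 3.58.1 voom with sample quality weights, RLE size factors, unscaled library totals, edgeR's filterByExpr or no filter in place of the read minimum, the replicate number as a block, and leaving out each library. The scripts were tested on simulated data. The 10 genes, the lists and the markers were chosen with earlier results of these data known. Named are the 10 genes, the 2 genes of each list with the smallest p, and the 5 genes most like the members' mean profile. Any other gene named for its level or as a marker was picked with the values already seen, also where the text does not say so. Gene positions come from the deposited table (mm9). All 10 match genes of GENCODE vM1 on NCBIM37 (mm9). On the other strand that annotation overlaps Lipe with 4732471J01Rik, Fabp3 with Zcchc17 and Mgll with Gm16628. Of the 75-base stretches of the members' protein-coding transcripts, only 0.42% of those of Lpl occur in another gene's protein-coding transcripts. Pseudogenes and noncoding genes were not searched. Promoter sequences are RefSeq's on GRCm38.p6.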

Additional observations from a re-analysis of the deposited data

Results flagged for a closer look

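In a group of 4 libraries, a library was looked at again where its gap to the nearest other took up more of the range of the group than Dixon's 95% critical value allows, which chance gives in about 1 of 20 groups. Of 64 groups examined, 8 met this. In 3 of the 10 genes it was Vehicle 2: Lpl at 1975 CPM, beside 523 to 673 CPM in the remaining Vehicle libraries (ratio of gap to range 0.896), Pnpla2 at 444 CPM, against 221 to 246 CPM (ratio 0.889), and Acsl1 at 1070.0 CPM, against 361 to 438 CPM (ratio 0.892). Vehicle 2 also stood apart for Cidea, at 94.8 CPM against 0.322 to 8.76 CPM (ratio 0.911), for Ppara, at 105 CPM against 20.3 to 27.6 CPM (ratio 0.913), for the summed brown adipocyte markers, at 368 CPM against 1.57 to 30.6 CPM (ratio 0.921), and for the summed hepatocyte markers, at 10.5 CPM against 0.785 to 0.888 CPM (ratio 0.989). Mlycd was the exception. There Folfiri 4 stood apart, at 74.7 CPM against 60.2 to 61.1 CPM in the other Folfiri libraries (ratio 0.942), and still lay below all Vehicle libraries.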

How the results depend on the processing

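The count of members called was 0 under every alternative run. The number of genes called over the whole table was 1 in the quasi-likelihood fit, against 86 in the exact test (65 higher and 21 lower), 101 in the likelihood ratio test (76 higher and 25 lower), 77 in DESeq2 (52 higher and 25 lower), 3 in limma voom, 3 with library totals only and 3 with the replicate number as a block. Leaving out 1 library gave 0 to 1, and leaving out Folfiri 1 and Vehicle 2 together, an alternative chosen after seeing the data, gave 0. Library totals moved the median of all genes to 0.14. The members at an unadjusted p under 0.05 numbered 5, against 6 in the exact and likelihood ratio tests, 3 in the robust fit, DESeq2 and library totals, 1 in voom, and 0 to 7 when 1 library was left out (0 without Vehicle 2 and 1 without Folfiri 1). Signs turned for Fabp3 in voom (0.054), without Vehicle 2 (0.20) and without Folfiri 1 and Vehicle 2 (0.41). The last setting also turned Mgll (0.042), Plin2 (0.11), Gpihbp1 (0.046) and Acsl5 (0.057). Gpihbp1 further turned in voom (0.036), with library totals (0.0066) and without Vehicle 1 (0.031), Acsl6 with library totals (0.035), without Folfiri 2 (0.0036) and without Vehicle 3 (0.012), and Acsl5 without Vehicle 2 (0.074). When 1 library was left out, the values ran from -0.77 to 0.20 for Fabp3, from -0.26 to 0.031 for Gpihbp1, from -0.44 to 0.074 for Acsl5 and from -0.24 to 0.012 for Acsl6. The cause was not tested. The difference in the adipocyte marker sum, Folfiri minus Vehicle, was -474 CPM, between -688 and -61.3 CPM when 1 library was left out, and -192 CPM without Fabp4, an alternative added after seeing the data.

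The samples share only a replicate number. Deviations of same-numbered libraries correlated at 0.30, 0.14, 0.06 and 0.20, and 2 of the 4 Folfiri libraries correlated best with a Vehicle library of another number. With the block 3 genes were called and 0 members, whose median log2 fold change was -0.75. Of the 10 genes Angptl4 had the fewest reads, 41 in its lowest library, and also the highest coefficient of variation among Vehicle libraries, 111%, and its 95% interval was -2.83 to -0.14.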
